A study of Mus musculus with 36 samples.

Results

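Fbxo32, Trim63, Gabarapl1, Bnip3 and Klf15 are 5 genes whose transcripts are tied to muscle wasting and to the metabolic state of the heart. They were taken as all probe sets of 2 Affymetrix mouse chips, 430A and 430B, that the platform annotation gives to 1 of these symbols alone, which yielded 8 of 45265 probe sets. Fbxo32 had 3 probe sets, Gabarapl1 had 2, and Trim63, Bnip3 and Klf15 had 1 each, with 6 on chip 430A and 2 on chip 430B. The values are MAS5 signals, a linear measure of hybridisation per probe set, in 18 hearts of individual mice.

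Each mouse carried 2 transgenes, Tet-myrAkt1, a tetracycline-controlled gene for myristoylated and so permanently active Akt1, and tTA, the transactivator that turns it on, under an MHC promoter of heart muscle cells (the letter before MHC is not legible in the labels). The hearts formed 5 groups, named here by the state of the transgene: before induction (4 hearts, 12 weeks of age), 2 weeks on (4 hearts, 14 weeks), 2 weeks on and then 2 days off (4 hearts, 14 weeks and 2 days), 6 weeks on (3 hearts, 18 weeks) and 6 weeks on and then 2 weeks off (3 hearts, 20 weeks). Both transgenes are present in all 5 groups, so no group shows the heart without them. Age goes up along with the time on, and these cannot be told apart. All mice are labelled male. The tissue is labelled heart tissue with no chamber named, and in such a mixture fewer cells of a type and less RNA per cell cannot be told apart.

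Akt phosphorylates the FoxO transcription factors and keeps them out of the nucleus. In skeletal muscle and heart, FoxO factors raise the transcription of genes for protein breakdown: Fbxo32 encodes atrogin-1 (MAFbx), the F-box subunit that picks substrates for an SCF ubiquitin ligase, and Trim63 encodes MuRF1, a RING-finger ubiquitin ligase of the sarcomere. Gabarapl1, a ubiquitin-like protein of the GABARAP family on autophagosome membranes, and Bnip3, a protein of the outer mitochondrial membrane that takes part in the removal of mitochondria, belong to the autophagy arm of the same program. Klf15 is a zinc-finger transcription factor that is induced by glucocorticoids, drives amino acid breakdown and restrains growth of heart muscle cells.

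Of the Akt1 probe sets, 1425711_a_at was picked by its rise on induction. It gave 548 ± 69.7 before induction, 2878 ± 645 at 2 weeks on, 718 ± 21.8 at 2 days off, 2365 ± 542 at 6 weeks on, and 753 ± 106 in the hearts 2 weeks off (SD, n = 4, 4, 4, 3 and 3). Another, 1416657_at, did not rise. Against before induction its log2 change was -0.23 at 2 weeks on (limma, adjusted p = 0.382) and -0.54 at 6 weeks on (adjusted p = 0.0236). On chip 430B, 1440950_at was at -0.63 at 2 weeks on (adjusted p = 0.151) and -0.09 at 6 weeks on (adjusted p = 0.886). No source used here says which Akt1 probe sets read the transgene. The arrays had medians between 183 and 232 (430A) or between 60.9 and 78.9 (430B). All 6 heart muscle cell markers of the list (Myh6, Tnnt2, Tnni3, Actc1, Myl2, Ryr2) were kept by the filter on low signal, a mean over all hearts of at least 20% of the chip's 2% trimmed mean, as were all 8 member probe sets. Their summed signal lay between 94487 and 197072. Hearts 3 and 4 before induction are labelled male but carried signal of the female-specific transcript Xist (2518 and 2170, against 4.4 to 92.8 in the other 16 hearts). Calls of the members against the hearts before induction are also given without these hearts. Heart 3 at 6 weeks on stood apart in the ratio of 3′ to 5′ Actb signal, a sign of RNA quality, at 3.71 (430A) and 4.20 (430B), against at most 1.92 and 1.88 in the other hearts, and calls of the members that rest on it are also given without it. The ratio moved with the groups as well. On chip 430A it ran from 1.21 to 1.61 before induction, 1.26 to 1.92 at 2 weeks on, 1.04 to 1.18 at 2 days off, 1.24 to 3.71 at 6 weeks on and 0.952 to 1.22 at 2 weeks off. The hearts at 2 days off did not overlap those at 2 weeks on, nor those at 2 weeks off the hearts at 6 weeks on, and the same held on chip 430B.

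The promoters of the members are shown because motifs known from FoxO, glucocorticoid and clock factors can be looked up in them beside the values. RefSeq's table of start regions (build GRCm38.p6, from 250 bases before to 50 bases after the start) held 4 of the 5 genes, and each is printed from 5′ to 3′ on the strand of the gene. Capitals mark matches, on either strand, to 4 motifs that were chosen after the windows had been read: GTAAACA and ATAAACA, forms of the forkhead site that FoxO proteins bind, GNACA and TGTNC with 3 bases between them, a form of the glucocorticoid and androgen receptor element, and CACGTG, the E-box bound by clock and Myc-type factors.
Trim63 chr4:134314870-134315169 (plus strand): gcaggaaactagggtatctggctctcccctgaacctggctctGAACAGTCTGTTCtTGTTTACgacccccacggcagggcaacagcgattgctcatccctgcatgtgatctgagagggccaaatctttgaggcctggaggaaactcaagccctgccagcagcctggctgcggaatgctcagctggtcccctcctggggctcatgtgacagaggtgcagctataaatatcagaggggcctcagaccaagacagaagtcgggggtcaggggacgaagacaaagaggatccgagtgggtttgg
Gabarapl1 chr6:129532942-129533241 (plus strand): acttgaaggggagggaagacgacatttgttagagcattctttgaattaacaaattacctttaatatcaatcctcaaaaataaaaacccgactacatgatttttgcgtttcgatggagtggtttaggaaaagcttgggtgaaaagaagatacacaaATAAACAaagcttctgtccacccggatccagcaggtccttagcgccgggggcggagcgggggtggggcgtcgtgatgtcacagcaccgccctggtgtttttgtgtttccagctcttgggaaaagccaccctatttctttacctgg
Bnip3 chr7:138909457-138909756 (minus strand): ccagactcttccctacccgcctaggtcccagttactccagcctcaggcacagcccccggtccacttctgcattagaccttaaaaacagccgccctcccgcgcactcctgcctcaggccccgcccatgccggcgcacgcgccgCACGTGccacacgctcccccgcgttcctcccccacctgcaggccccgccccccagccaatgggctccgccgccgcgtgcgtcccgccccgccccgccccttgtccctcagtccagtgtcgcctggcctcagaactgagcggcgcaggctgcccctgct
Klf15 chr6:90462326-90462625 (plus strand): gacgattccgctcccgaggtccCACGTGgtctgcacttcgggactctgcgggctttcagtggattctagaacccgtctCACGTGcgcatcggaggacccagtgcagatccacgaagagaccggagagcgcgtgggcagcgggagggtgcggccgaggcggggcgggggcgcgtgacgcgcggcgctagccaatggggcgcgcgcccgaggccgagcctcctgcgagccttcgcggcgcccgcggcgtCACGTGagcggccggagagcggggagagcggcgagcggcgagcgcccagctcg
Trim63 held the receptor element GAACAGTCTGTTC, which started 208 bases before the start site, followed after 1 base by TGTTTAC, the forkhead site GTAAACA read on the other strand, at 194 bases. Among the 32851 windows of the table, 0.475% held the receptor element and 3.65% held GTAAACA. Gabarapl1 held ATAAACA (4.6% of windows) at 95 bases. Bnip3 held 1 CACGTG at 108 bases and Klf15 held 3, at 228, 172 and 3 bases before the start, where 7.15% of windows held at least 1 and 0.0883% at least 3. The Klf15 window was 73.3% G and C, and the median of all windows was 52.7%. These matches describe letters in a window, and binding was not measured here. Because the motifs were chosen after the windows had been read, the shares are no test of how unusual the matches are. The shares also cover windows of any G and C content. The motifs do not overlap one another in these windows.

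Most of the 8 probe sets moved against the transgene in the hearts of the 2-week induction. They were lower at 2 weeks on than before induction and higher at 2 days off than at 2 weeks on. In the hearts of the 6-week induction, which came from other mice, the members parted. Klf15, Bnip3 and 1 probe set each of Gabarapl1 and Fbxo32 were higher at 6 weeks on than at 2 weeks on. Trim63, the other Gabarapl1 probe set and another of Fbxo32 were lower at 6 weeks on than before induction. After 2 weeks off, Trim63, Gabarapl1 and 2 of the 3 Fbxo32 probe sets were higher than at 6 weeks on, and the change of Klf15 did not pass the test.

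**Figure D1:**
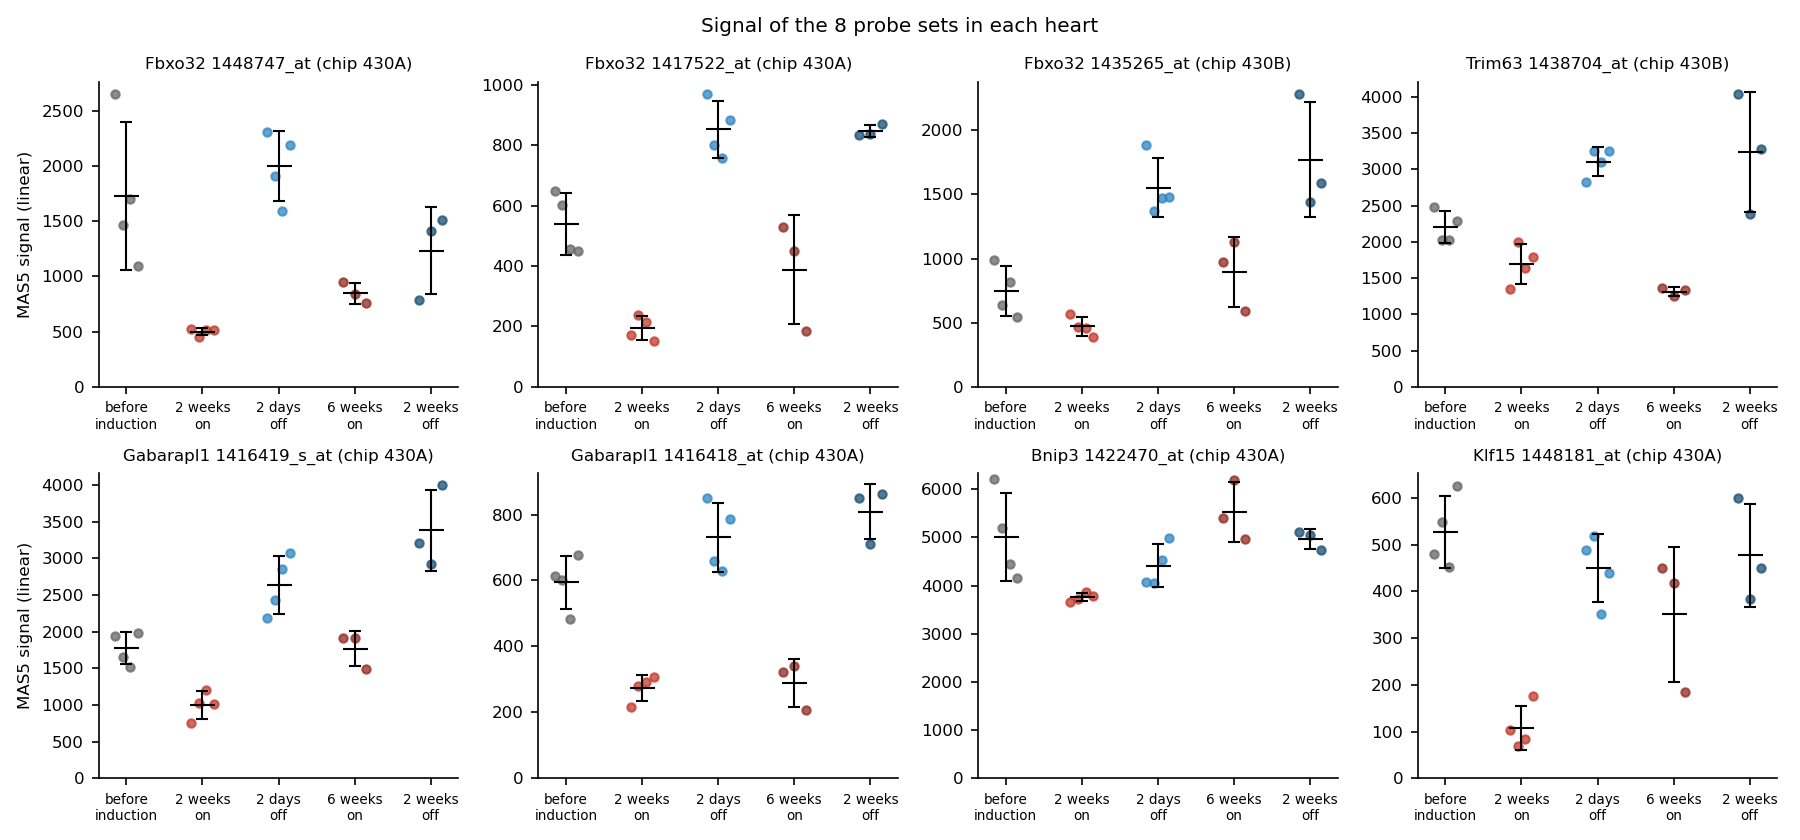
MAS5 signal (linear, y axis from 0) of each of the 8 probe sets in each heart (points) by group (x axis, in order of time), with the group mean and SD (horizontal bars). Klf15 lay between 69.8 and 176 in the 4 hearts at 2 weeks on and at 352 or above in 13 of the other 14 hearts; heart 3 at 6 weeks on had 184.

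At 2 weeks on against before induction, 6 of the 8 probe sets were called lower and 0 higher (limma, adjusted p under 0.05 over all probe sets of a chip), and 7 had groups of hearts that did not overlap. Over all 33084 probe sets tested, 5.01% were called, 2.35% lower, and 11.1% did not overlap. Log2 changes are differences between group means of log2(signal + 10% of the trimmed mean), a scale that understates the change of low signals. The median change of the members was -0.90 and that of all probe sets -0.03. The count was 6 without both hearts with Xist signal too.

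At 2 days off against 2 weeks on, 7 of 8 were called higher (9.73% of all probe sets called, 5.29% higher) and all 8 did not overlap (19% of all). The median change of the members was 1.53, and that of all probe sets was -0.01. With the Actb ratio, which was lower at 2 days off, as a covariate 7 were called as well. At 2 days off against before induction, 2 of 8 were called higher (3.23% of all called, 1.77% higher): Fbxo32 1435265_at by 1.07 (adjusted p = 0.0123) and Gabarapl1 1416419_s_at by 0.55 (adjusted p = 0.0398). Neither passed without both hearts with Xist signal (log2 0.94, adjusted p = 0.108, and log2 0.53, adjusted p = 0.143).

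At 6 weeks on against before induction, 3 of 8 were called lower (13.2% of all called, 7.54% lower), 1 each of Fbxo32, Trim63 and Gabarapl1, and 4 did not overlap (20.9% of all). Without both hearts with Xist signal 2 were called, and without heart 3 at 6 weeks on 3 were. With arrays scaled to a common median 1 was. Against 2 weeks on, the hearts at 6 weeks on had 4 of 8 called higher and 0 lower (4.06% of all called, 1.69% higher), and 5 called higher without heart 3. The count was 2 without heart 2 at 6 weeks on and 1 in a fit of these groups alone. The 2 groups of induced hearts differ in age as well as in the time on.

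At 2 weeks off against 6 weeks on, 5 of 8 were called higher (10.9% of all called, 6.48% higher), and 4 without heart 3 at 6 weeks on. With the Actb ratio, which was lower at 2 weeks off, as a covariate 3 were called, and in a fit of these groups alone 2 were, both of Gabarapl1. Against before induction, 2 of 8 were called higher at 2 weeks off (2.57% of all called, 1.17% higher), Fbxo32 1435265_at by 1.24 (adjusted p = 0.00689) and Gabarapl1 1416419_s_at by 0.91 (adjusted p = 0.00454). Without both hearts with Xist signal the Gabarapl1 probe set was called (log2 0.88, adjusted p = 0.0384) and the Fbxo32 probe set was not (log2 1.12, adjusted p = 0.0734). Between the repressed groups, 2 weeks off against 2 days off, 0 of the 8 were called, where 1 of all 33084 probe sets was (0.00302%), while 2 members and 4.48% of all probe sets had an unadjusted p under 0.05 in limma. The 2 members were Fbxo32 1448747_at at -0.71 (limma, unadjusted p = 0.00661) and Gabarapl1 1416419_s_at at 0.35 (unadjusted p = 0.0445). For the Fbxo32 probe set the hearts did not overlap, as for 6.63% of all probe sets. The adjusted p was 0.9998 for each of the 8 members. These comparisons share groups of hearts, so they are not independent of one another.

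**Figure D2:**
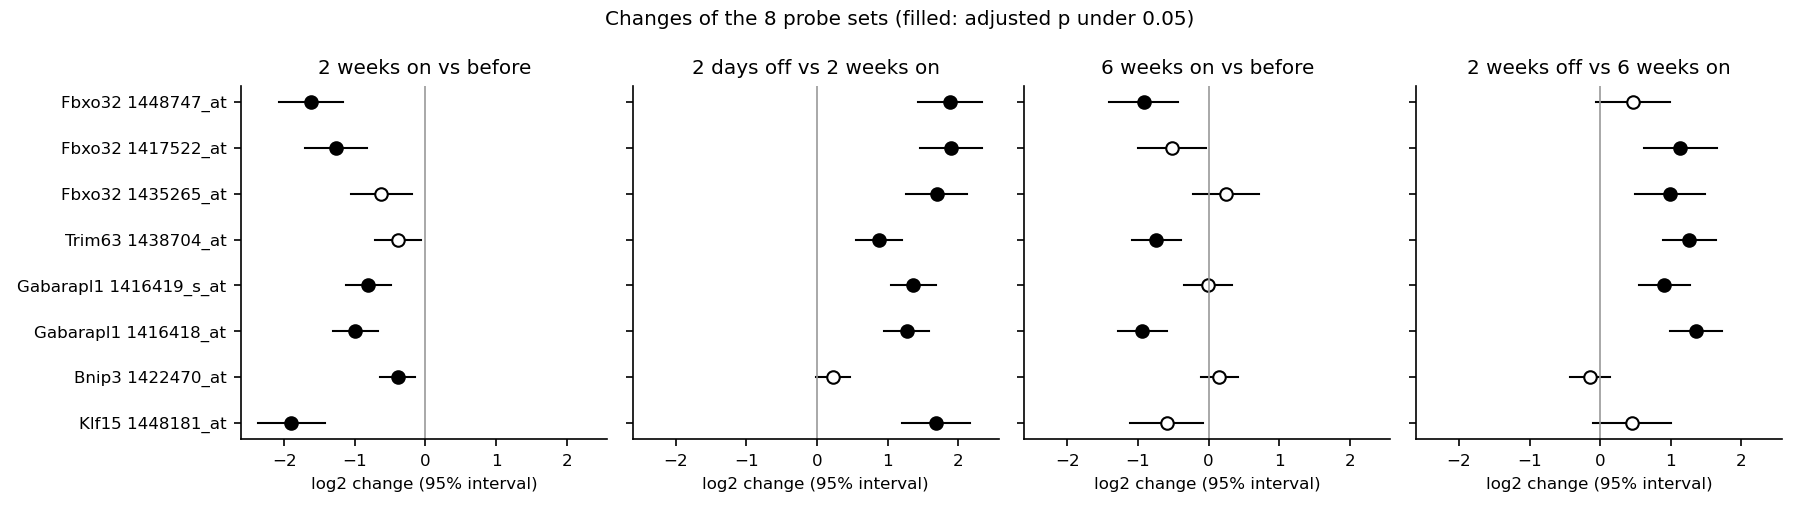
Log2 change (x axis) of each probe set (y axis) with its 95% interval in 4 comparisons, filled where the adjusted p was under 0.05. At 2 weeks on all 8 points lie left of 0 and at 2 days off all 8 lie right of it. At 6 weeks on they spread from -0.94 (Gabarapl1 1416418_at) to 0.25 (Fbxo32 1435265_at).

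Fbxo32, the substrate-binding subunit known as atrogin-1, fell at 2 weeks on and rose at 2 days off. Its probe set 1448747_at gave 2657, 1467, 1702 and 1091 in the hearts before induction, 526, 449.8, 511 and 519 at 2 weeks on, and 2308, 1915, 1589 and 2193 at 2 days off. It gave 946, 842, 756 at 6 weeks on and 785, 1409.9 and 1511 at 2 weeks off. The 4 hearts at 2 weeks on formed a narrow band below every other heart. The 3 at 6 weeks on lay above that band and below the hearts before induction, and 1 of the 3 at 2 weeks off lay within the range at 6 weeks on. The mean at 2 weeks on was 29.0% of the mean before induction, and at 6 weeks on it was 49.0%. The log2 change was -1.62 ± 0.217 at 2 weeks on against before (SE, adjusted p = 0.000129) and 1.88 ± 0.217 at 2 days off against 2 weeks on (adjusted p = 2.4e-05). By 6 weeks on it was -0.92 ± 0.234 against before (adjusted p = 0.0094) and 0.70 ± 0.234 against 2 weeks on (adjusted p = 0.0800, hearts not overlapping). After 2 weeks off it was 0.47 ± 0.250 against 6 weeks on (adjusted p = 0.206). Without both hearts with Xist signal the changes from before were -1.88 at 2 weeks on and -1.18 at 6 weeks on, and both were called. With arrays scaled to a common median the change at 6 weeks on was -0.72 and not called (adjusted p = 0.0576). Without heart 3 at 6 weeks on it was -0.84 against before (adjusted p = 0.0390), 0.78 against 2 weeks on (adjusted p = 0.0918) and 0.39 at 2 weeks off against 6 weeks on (adjusted p = 0.407).

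The rise of Fbxo32 1448747_at on repression was smaller in the second cycle than in the first, by -1.41 ± 0.331 on the log2 scale (adjusted p = 0.0475), the single member called in that difference (0.469% of all probe sets called, 0.233% lower). The call was lost when any of 13 of the 18 hearts was left out (adjusted p up to 0.123). For the other 2 Fbxo32 probe sets the difference was -0.76 ± 0.324 (1417522_at, adjusted p = 0.302) and -0.70 ± 0.316 (1435265_at, adjusted p = 0.520). The 2 repressions differ in the time on, the time off and the age of the hearts, which cannot be told apart.

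The second Fbxo32 probe set on chip 430A, 1417522_at, gave 649, 603, 456 and 448 before induction, 172, 239, 214 and 152 at 2 weeks on, 970.5, 800.0, 758 and 884 at 2 days off, 529, 451 and 184 at 6 weeks on, and 835, 838 and 870.3 at 2 weeks off. Both repressed groups lay above every heart before induction, and heart 3 at 6 weeks on, the heart with the high Actb ratio, lay within the range at 2 weeks on. The log2 change was -1.27 ± 0.212 at 2 weeks on (adjusted p = 0.00104), 1.90 ± 0.212 at 2 days off against 2 weeks on (adjusted p = 1.87e-05) and 1.14 ± 0.245 at 2 weeks off against 6 weeks on (adjusted p = 0.00355). The first was -1.48 without both hearts with Xist signal (adjusted p = 0.00592). Without heart 3 at 6 weeks on, the last of these was 0.74 (adjusted p = 0.0131), and the change at 6 weeks on against 2 weeks on went past the threshold, at 1.16 (adjusted p = 0.000510) against 0.76 (adjusted p = 0.0540) with it. With the Actb covariate the change of Fbxo32 1417522_at at 2 weeks off against 6 weeks on was 0.62 (adjusted p = 0.0650).

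The Fbxo32 probe set on chip 430B, 1435265_at, gave 988, 639, 819 and 543 before induction, 566, 469, 462 and 389 at 2 weeks on, 1889, 1368, 1471 and 1478 at 2 days off, 971, 1126 and 593 at 6 weeks on, and 2286, 1439 and 1592 at 2 weeks off. Here the hearts at 2 weeks on overlapped those before induction (log2 -0.63 ± 0.207, adjusted p = 0.139, and -0.75, adjusted p = 0.195, without both hearts with Xist signal), and the repressed hearts lay above all hearts of the other groups. The change was 1.69 ± 0.207 at 2 days off against 2 weeks on (adjusted p = 9.62e-05) and 0.99 ± 0.239 at 2 weeks off against 6 weeks on (adjusted p = 0.0236), and without heart 3 at 6 weeks on the second was 0.73 (adjusted p = 0.123). With the Actb covariate it was 0.75 (adjusted p = 0.207). Its rise at 6 weeks on against 2 weeks on, 0.87 ± 0.224, was at the edge of the threshold (adjusted p = 0.0491) and was lost when any of 13 of the 18 hearts was left out (adjusted p up to 0.196).

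Trim63, the sarcomeric ligase MuRF1, gave 2483, 2032, 2029 and 2288 before induction, 1348, 2005, 1645 and 1785 at 2 weeks on, 2827, 3259, 3102 and 3249 at 2 days off, 1359.8, 1247 and 1338 at 6 weeks on, and 4048, 2385 and 3289 at 2 weeks off. The hearts at 2 weeks on lay below those before induction without overlap, although heart 2 there, at 2005, came close to the 2029 of heart 3 before induction, and the log2 change of -0.39 ± 0.155 did not pass the test (adjusted p = 0.252, and -0.42, adjusted p = 0.420, without both hearts with Xist signal). After 6 weeks on the 3 hearts lay close together and below all hearts before induction, with a change of -0.74 ± 0.168 (adjusted p = 0.0113). That change was -0.77 without both hearts with Xist signal (adjusted p = 0.0581) and -0.75 without heart 3 at 6 weeks on (adjusted p = 0.0303). The rise on repression was 0.88 ± 0.155 at 2 days off against 2 weeks on (adjusted p = 0.00370) and 1.26 ± 0.179 at 2 weeks off against 6 weeks on (adjusted p = 0.000423). The second was 1.27 without heart 3 (adjusted p = 0.00157), and in a fit of these groups alone it was not called. Against before induction the changes of Trim63 were 0.49 ± 0.155 at 2 days off (adjusted p = 0.121) and 0.52 ± 0.168 at 2 weeks off (adjusted p = 0.126).

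Gabarapl1, which tags autophagosome membranes, was read by 2 probe sets of chip 430A. They moved in the same direction at 2 weeks on and at 2 days off, and parted at 6 weeks on. Probe set 1416419_s_at gave 1948, 1658, 1520.5 and 1977 before induction, 748, 1022, 1206 and 1021 at 2 weeks on, 2188, 2434, 2858 and 3071 at 2 days off, 1913, 1909.7 and 1490.0 at 6 weeks on, and 3215, 2926 and 4003 at 2 weeks off. Hearts 1 and 2 at 6 weeks on lay in the range of those before induction and heart 3 just below it, and the repressed hearts lay above both groups. Probe set 1416418_at gave 614, 603, 484 and 676 before induction, 217, 279, 292 and 306 at 2 weeks on, 850.1, 658, 629 and 787 at 2 days off, 323, 339 and 206 at 6 weeks on, and 849, 712 and 863 at 2 weeks off. Here the hearts at 6 weeks on lay with those at 2 weeks on, below all others.

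At 2 weeks on against before, the log2 change of Gabarapl1 was -0.81 ± 0.152 for 1416419_s_at (adjusted p = 0.00258) and -0.99 ± 0.153 for 1416418_at (adjusted p = 0.000535). At 2 days off against 2 weeks on it was 1.36 ± 0.152 (adjusted p = 1.78e-05) and 1.27 ± 0.153 (adjusted p = 3.96e-05). At 6 weeks on against before, 1416419_s_at had a change near 0 (95% interval -0.35 to 0.34, adjusted p = 0.987), while 1416418_at was lower by -0.94 ± 0.165 (adjusted p = 0.000649). Set against 6 weeks on, at 2 weeks off the changes were 0.91 ± 0.175 (adjusted p = 0.00170) and 1.36 ± 0.176 (adjusted p = 7.01e-05). Unlike 1416419_s_at, 1416418_at was not called higher than before induction in either repressed group. Its changes were 0.28 at 2 days off (adjusted p = 0.317) and 0.42 at 2 weeks off (adjusted p = 0.173). Without heart 3 at 6 weeks on, 1416418_at was at -0.75 against before (adjusted p = 0.00450), and the changes of Gabarapl1 at 2 weeks off against 6 weeks on were 0.79 for 1416419_s_at (adjusted p = 0.0102) and 1.17 for 1416418_at (adjusted p = 0.000338). The falls at 2 weeks on without both hearts with Xist signal were -0.83 (adjusted p = 0.0264) and -1.03 (adjusted p = 0.00680), and that of 1416418_at at 6 weeks on was -0.98 (adjusted p = 0.00504).

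The gap between the 2 Gabarapl1 probe sets was set out per heart as the difference of their log2 values, centred on the hearts before induction. It was 0.94 at 6 weeks on (0.83 to 1.09 in the 3 hearts) against a range of -0.12 to 0.09 before induction, and at 2 weeks off it was 0.49 (0.36 to 0.65). Neither group overlapped the hearts before induction, and the exact permutation p was 0.0571 in each, the smallest that 3 against 4 hearts allow (adjusted p = 0.114 over 10 such tests, two-sided). For Fbxo32, the difference of 1448747_at minus 1417522_at was -1.07 at 2 weeks off (-1.62 to -0.78) against -0.34 to 0.41 before induction, also without overlap, with the same exact p and adjusted p. A difference between probe sets on the same array describes unequal change of their signals. The part of RNA quality, whose measure moved with the groups, in this difference was not tested. No source used here says which transcripts, or which ends of them, the probe sets read. Whether a probe set also binds transcripts of another gene was not tested.

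Bnip3, the mitochondrial receptor, was lower at 2 weeks on than before induction and higher at 6 weeks on than at 2 weeks on. It gave 6208, 5197, 4449 and 4157 before induction, 3668, 3713, 3857 and 3777 at 2 weeks on, 4064, 4062, 4526 and 4993 at 2 days off, 5398, 6195 and 4966 at 6 weeks on, and 5121, 5039 and 4737 at 2 weeks off. The 4 hearts at 2 weeks on lay below the other 14, and the other 4 groups overlapped one another. The fall at 2 weeks on was -0.39 ± 0.118 against before (adjusted p = 0.0437), a call lost when any of 12 of the 18 hearts was left out (adjusted p up to 0.110). Without both hearts with Xist signal it was -0.59 (adjusted p = 0.0199). By 6 weeks on Bnip3 was higher than at 2 weeks on by 0.54 ± 0.127 (adjusted p = 0.0144). That change of Bnip3 was 0.62 without heart 3 (adjusted p = 0.0116), 0.46 without heart 2 (adjusted p = 0.0628), and 0.54 with adjusted p = 0.0636 in a fit of these groups alone. Neither repression of Bnip3 was called, with changes of 0.22 ± 0.118 at 2 days off (adjusted p = 0.196) and -0.15 ± 0.136 at 2 weeks off (adjusted p = 0.502).

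Klf15 had the largest fitted fall of the 8 probe sets at 2 weeks on. It gave 480.2, 549, 453 and 625 before induction, 104, 69.8, 84.1 and 176 at 2 weeks on, 488, 518, 352 and 438 at 2 days off, 449, 419 and 184 at 6 weeks on, and 599, 385 and 449 at 2 weeks off. The hearts at 2 weeks on lay below all others, and heart 3 at 6 weeks on, at 184, was the lowest of the remaining 14. The mean at 2 weeks on was 20.6% of that before induction, with a log2 change of -1.90 ± 0.228 (adjusted p = 4.46e-05), and the rise at 2 days off against 2 weeks on was 1.69 ± 0.228 (adjusted p = 0.000133). After 6 weeks on Klf15 was higher than at 2 weeks on by 1.30 ± 0.247 (adjusted p = 0.00423) with the transgene on in both. That rise was 1.65 without heart 3 (adjusted p = 0.000221), and in a fit of these groups alone it was not called (adjusted p = 0.0598). Without both hearts with Xist signal the changes of Klf15 from before were -1.87 at 2 weeks on (adjusted p = 0.00214) and -0.57 at 6 weeks on (adjusted p = 0.249). Against before induction, 6 weeks on was at -0.59 ± 0.247 (adjusted p = 0.0924, hearts not overlapping), and without heart 3 it was at -0.24 (adjusted p = 0.498). At 2 weeks off against 6 weeks on the change was 0.45 ± 0.264 (adjusted p = 0.250). The difference of the 2 repression responses was -1.23 ± 0.349 (adjusted p = 0.0983), and without heart 3 at 6 weeks on it was -1.58 (adjusted p = 0.00944).

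Put in order of their mean signals, the groups stood differently for each gene. For Fbxo32 1448747_at the order from low to high was 2 weeks on, 6 weeks on, 2 weeks off, before induction and 2 days off. No pair of neighbours in it passed the test (adjusted p = 0.0800, 0.206, 0.325 and 0.537 in that order). For Trim63 it was 6 weeks on, 2 weeks on, before, 2 days off and 2 weeks off, again with no neighbours called (adjusted p = 0.331, 0.252, 0.121 and 0.9998). For Gabarapl1 1416419_s_at the order was 2 weeks on, 6 weeks on, before, 2 days off and 2 weeks off. There, 2 weeks on was separated from 6 weeks on (adjusted p = 0.00689) and 2 days off from before (adjusted p = 0.0398), with adjusted p = 0.987 and 0.9998 for the other neighbours. For Bnip3 it was 2 weeks on, 2 days off, 2 weeks off, before and 6 weeks on, with adjusted p = 0.196, 0.9998, 0.987 and 0.420. For Klf15 it was 2 weeks on, 6 weeks on, 2 days off, 2 weeks off and before. Only the first step, from 2 weeks on to 6 weeks on, passed (adjusted p = 0.00423). The later steps of Klf15 had adjusted p = 0.269, 0.9998 and 0.817.

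The genes most like a member were found by the root mean square difference of log2 profiles over the 18 hearts of a chip, each centred on its own mean, where 0 is an identical profile. For Fbxo32 1448747_at, whose own SD over the hearts was 0.76, these were Klhl24 (0.34), an adaptor of cullin ubiquitin ligases, Dusp18 (0.34), a phosphatase, Txlnb (0.35), a muscle taxilin, Pde7a (0.42), a cyclic AMP phosphodiesterase, and Amotl2 (0.43), an angiomotin. This Klhl24 probe set stood at 29.5% of its mean before induction at 2 weeks on, 123% at 2 days off, 35.9% at 6 weeks on and 87.5% at 2 weeks off. A second Klhl24 probe set was also the second nearest to Fbxo32 1435265_at on chip 430B (0.33), after Srrm4 (0.29), a splicing regulator. That second Klhl24 probe set differed from the first at 6 weeks on. It stood at 71.4% at 2 weeks on, 158% at 2 days off, 115% at 6 weeks on and 171% at 2 weeks off. For Klf15 (own SD 0.78) the nearest were Slc2a1 (0.36), the glucose carrier GLUT1, Art3 (0.43), an ADP-ribosyltransferase family member, Hspa4 (0.44), a heat shock protein, Neo1 (0.44), the receptor neogenin, and Rusc2 (0.45).

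**Figure D3:**
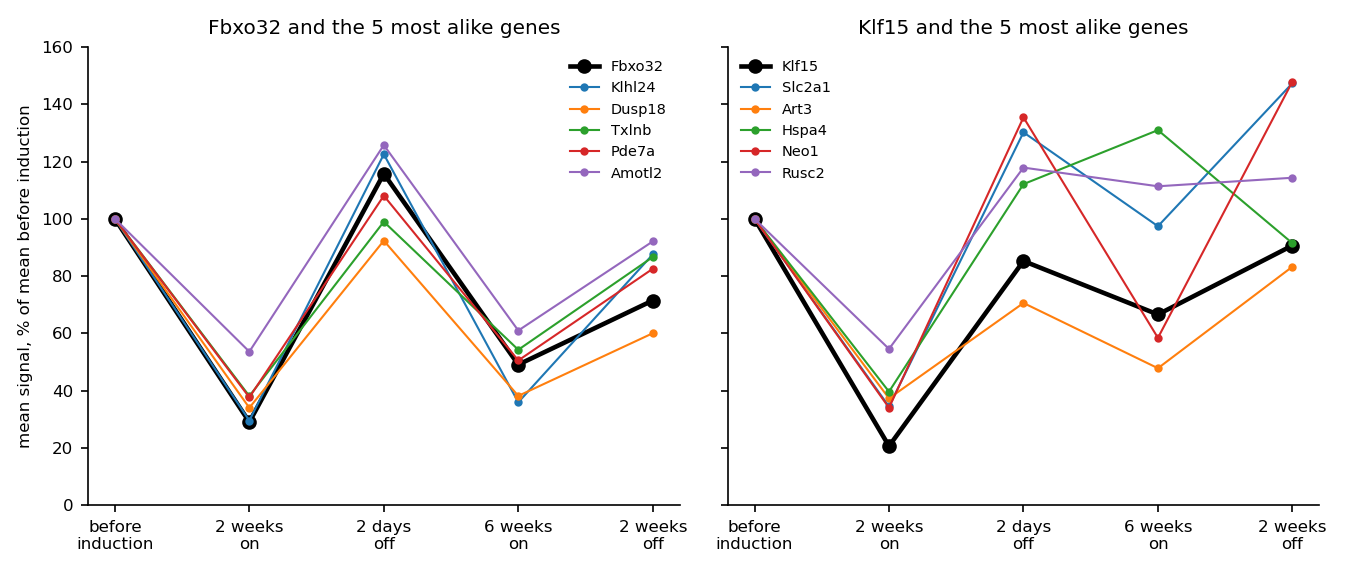
Mean signal of Fbxo32 1448747_at (left) and Klf15 (right), each with its 5 most alike genes, as a percent of the mean before induction (y axis) by group in order of time (x axis), without error bars. The 6 lines of the Fbxo32 panel keep the same order of ups and downs, while at 6 weeks on the lines of the Klf15 panel spread from 47.8% (Art3) to 131% (Hspa4).

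For Gabarapl1 1416419_s_at (own SD 0.61) the nearest were Retreg1 (0.21), a receptor for autophagy of the endoplasmic reticulum, Eif4ebp1 (0.27), the repressor of cap-dependent translation, and Glul (0.28), glutamine synthetase. For Trim63 (own SD 0.51) they were Cnksr3 (0.19), Naa35 (0.22) and Rbm20 (0.23), the splicing factor of titin. For Bnip3 (own SD 0.23) they were Macroh2a1, Sgta and Gpx4, all at 0.16, which is near the size of its own variation. Among the members on chip 430A, the distance was 0.35 between the 2 Gabarapl1 probe sets, 0.47 between the 2 Fbxo32 probe sets and 0.54 between Klf15 and Fbxo32 1448747_at. Probe sets of 1 gene were not always the nearest. Fbxo32 1417522_at lay nearer to Gabarapl1 1416418_at (0.34) and 1416419_s_at (0.36) than to Fbxo32 1448747_at, and 0.48 from Klf15. These distances describe 18 hearts that share their groups.

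The FoxO genes themselves were not called: of Foxo1, Foxo3, Foxo4 and Foxo6, 3 were kept by the filter and limma called 0 in each comparison of groups made here, where 1 had an unadjusted p under 0.05 at 2 weeks off against 6 weeks on. Foxo1 averaged 525 ± 114 before induction, 479.5 ± 107 at 2 weeks on, 571 ± 53.7 at 2 days off, 522 ± 79.9 at 6 weeks on and 533 ± 162 at 2 weeks off. The gene with the unadjusted p under 0.05 was Foxo3, chosen after its values were seen, at -1.20 at 2 weeks off against 6 weeks on (adjusted p = 0.0509), and it was at 0.75 at 6 weeks on against 2 weeks on (adjusted p = 0.277). The array reads transcripts, and the place of FoxO proteins in the cell was not measured.

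The other FoxO and atrophy targets were called in both directions. Of 24 tested, 5 were higher and 5 lower at 2 weeks on (median log2 -0.24, against -0.03 for all probe sets), and 6 and 6 at 2 days off against 2 weeks on (median 0.28, against -0.01). The count at 2 weeks on was 2 higher and 1 lower without both hearts with Xist signal. Of all probe sets, 2.66% were called higher and 2.35% lower at 2 weeks on. At 2 days off against 2 weeks on the shares were 5.29% and 4.44%. Cdkn1a, the cell cycle inhibitor p21, and Pdk4, the kinase that shuts off pyruvate dehydrogenase, went opposite to Fbxo32: at 2 weeks on they were higher by 1.38 (adjusted p = 0.000336) and 1.30 (adjusted p = 0.00536). Bcl2l11, the cell death protein Bim, and Ulk1, the kinase that starts autophagy, were lower by -0.71 (adjusted p = 0.00796) and -0.53 (adjusted p = 0.0109). At 6 weeks on against before, 4 were higher and 2 lower of 24, where 5.65% and 7.54% of all probe sets were. Cdkn1a was at 3.24 (adjusted p = 3.58e-08), Ddit4, an inhibitor of mTORC1, at 2.90 (adjusted p = 2.35e-07) and Pdk4 at 2.18 (adjusted p = 5.75e-05). In hearts 2 weeks off against 6 weeks on, 5 were higher and 6 lower, where 6.48% and 4.41% of all probe sets were. Ddit4 was at -3.69 there (adjusted p = 5.55e-08). Without heart 3 at 6 weeks on, 2 were higher and 6 lower. Of 9 other muscle ubiquitin ligases and SCF subunits tested, limma called 0 at 2 weeks on and 0 at 2 days off against 2 weeks on (5 and 2 at an unadjusted p under 0.05), where 5.01% and 9.73% of all probe sets were called. The lowest p at 2 weeks on was that of Asb2, a ligase subunit chosen after its values were seen, at 0.60 (adjusted p = 0.0647). Without heart 3 at 6 weeks on, 1 of the 9 was called higher in each of these 2 comparisons. Among the calls in other comparisons, Nedd4 was lower at 6 weeks on against before (-0.58, adjusted p = 0.0138). It was higher at 2 weeks off against 6 weeks on (0.75, adjusted p = 0.00486). Against before, Wwp1 was higher at 2 days off (0.85, adjusted p = 0.0140) and Asb2 at 2 weeks off (0.70, adjusted p = 0.0492).

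Of 8 tested relatives of Gabarapl1 and Bnip3, 1 was lower and 0 higher at 2 weeks on, Gabarap by -0.59 (adjusted p = 0.00198). At 2 days off against 2 weeks on, 3 were higher and 0 lower: the autophagy receptor Sqstm1 by 0.78 (adjusted p = 0.00119), Gabarap by 0.58 (adjusted p = 0.00137) and Gabarapl2 by 0.64 (adjusted p = 0.0188). In hearts 6 weeks on against before, 1 was higher, Bcl2l1, a survival protein, by 0.50 (adjusted p = 0.0476), and 3 lower, Gabarapl2 by -0.81 (adjusted p = 0.00635), Gabarap by -0.51 (adjusted p = 0.00445) and the survival protein Bcl2 by -0.55 (adjusted p = 0.0177), and without both hearts with Xist signal 0 were higher and 2 lower. In hearts 2 weeks off against 6 weeks on, 3 were higher and 1 lower, with Gabarapl2 at 1.20 (adjusted p = 0.000839), and without heart 3 at 6 weeks on 2 were higher and 1 lower. The list's median was -0.25, 0.32, -0.20 and 0.21 in these comparisons, against -0.03, -0.01, -0.08 and 0.02 for all probe sets. Of all probe sets, 2.66%, 5.29%, 5.65% and 6.48% were called higher in them, and 2.35%, 4.44%, 7.54% and 4.41% lower. Of 8 hypoxia-responsive genes, a class to which Bnip3 belongs, 0 were higher and 1 was lower at 2 weeks on, Slc2a1 by -0.92 (adjusted p = 0.00104). Slc2a1 (0.74, adjusted p = 0.00302) and Vegfa (0.61, adjusted p = 0.00963) were higher at 2 days off against 2 weeks on. At 6 weeks on against before, Vegfa (-0.91, adjusted p = 0.000781) and Ndrg1 (-0.58, adjusted p = 0.0112) were lower and Egln3 (0.86, adjusted p = 0.00296) higher. At 2 weeks off against 6 weeks on, Vegfa was higher (1.19, adjusted p = 0.000233) and Egln3 lower (-0.98, adjusted p = 0.00231).

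Most other members of the KLF family were not called at 2 weeks on, where 2.66% of all probe sets were called higher and 2.35% lower. Of 11 other KLF genes tested, 1 was higher and 1 lower at 2 weeks on, Klf10 by 0.46 (adjusted p = 0.0288) and Klf9, itself known to respond to glucocorticoids, by -0.86 (adjusted p = 0.00518), where Klf15 was at -1.90. Without both hearts with Xist signal 0 were higher and 1 lower. Klf9 averaged 3851 ± 307 before induction, 2164 ± 642 at 2 weeks on, 2169 ± 156 at 2 days off, 3494 ± 12.9 at 6 weeks on and 2028 ± 554 at 2 weeks off. It was higher at 6 weeks on than at 2 weeks on (0.73, adjusted p = 0.0286), as Klf15 was, and lower at 2 weeks off than at 6 weeks on (-0.81, adjusted p = 0.0105). Without heart 3 at 6 weeks on, 0 of the 11 were called at 6 weeks on against 2 weeks on. Of 9 genes linked to Klf15 in other work, 1 was higher and 2 lower at 2 weeks on. These were Slc25a20, the carnitine carrier of mitochondria, by 1.25 (adjusted p = 0.00160), Slc2a4, the insulin-sensitive glucose carrier GLUT4, by -0.80 (adjusted p = 0.000172) and Prodh, proline dehydrogenase, by -0.63 (adjusted p = 0.0249). At 2 days off against 2 weeks on, 4 were higher and 3 lower, where 5.29% and 4.44% of all probe sets were. Among them were Slc2a4 at 0.97 (adjusted p = 2.03e-05), Slc25a20 at -1.57 (adjusted p = 0.000187), Mef2c, a transcription factor of muscle, at -0.56 (adjusted p = 0.00584) and Prodh at 0.69 (adjusted p = 0.00829). Called at 6 weeks on against before were Slc2a4 at -0.64 (adjusted p = 0.00116), Slc25a20 at 1.23 (adjusted p = 0.00142), Ccn2 at 1.57 (adjusted p = 0.00227) and Prodh at -0.75 (adjusted p = 0.00674). At 6 weeks on against 2 weeks on, where Klf15 was higher by 1.30, Ccn2 was higher by 1.30 (adjusted p = 0.0206) and Gpt lower by -0.50 (adjusted p = 0.0336). Slc2a4 (0.17), Prodh (-0.13) and Slc25a20 (-0.02) were not called there.

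Some glucocorticoid-responsive genes were called higher at 6 weeks on than at 2 weeks on and lower again at 2 weeks off. Of 6 tested, Fkbp5, Tsc22d3, Sgk1, Zbtb16, Per1 and Nr3c1 (the receptor gene), limma called 0 at 2 weeks on against before and 0 at 2 days off against 2 weeks on (2 and 1 at an unadjusted p under 0.05), where 5.01% and 9.73% of all probe sets were called. At 2 weeks on, Zbtb16 at -1.01 (adjusted p = 0.0617) and Per1 at -0.57 (adjusted p = 0.103) were the 2, chosen after their values were seen. Without heart 3 at 6 weeks on, 1 was lower in the second of these. In hearts 6 weeks on against 2 weeks on, where Klf15 was higher by 1.30, 4 of the 6 were higher and 0 lower: Tsc22d3 by 1.20 (adjusted p = 0.00525), Per1 by 1.14 (adjusted p = 0.00652), Fkbp5 by 1.20 (adjusted p = 0.0148) and Zbtb16 by 1.31 (adjusted p = 0.0295). The median of the 6 was 1.17, against -0.04 for all probe sets, of which 1.69% were called higher. Without heart 3 at 6 weeks on, 4 were called too. At 2 weeks off against 6 weeks on the same 4 were lower, by -1.51 (Tsc22d3), -1.61 (Per1), -1.06 (Fkbp5) and -1.98 (Zbtb16), with adjusted p from 0.000323 to 0.0193, and 4 were called lower without heart 3 at 6 weeks on too. Klf15 did not pass the test there, where 4.41% of all probe sets were called lower. Against before induction, Fkbp5 (1.42, adjusted p = 0.00173) and Tsc22d3 (1.36, adjusted p = 0.000578) were called higher at 6 weeks on. Per1 (0.57, adjusted p = 0.0841), Zbtb16 (0.31, adjusted p = 0.567), Sgk1 (0.12, adjusted p = 0.845) and Nr3c1 (-0.47, adjusted p = 0.138) were not. Per1 and Zbtb16 were lower at 2 weeks off than before induction, by -1.04 (adjusted p = 0.0158) and -1.68 (adjusted p = 0.0110). Tsc22d3 averaged 1261 ± 227 before induction, 1449.9 ± 472 at 2 weeks on, 1306 ± 107 at 2 days off, 3339 ± 760 at 6 weeks on and 1163 ± 437 at 2 weeks off. Whether glucocorticoids differed between the groups was not measured.

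**Figure D4:**
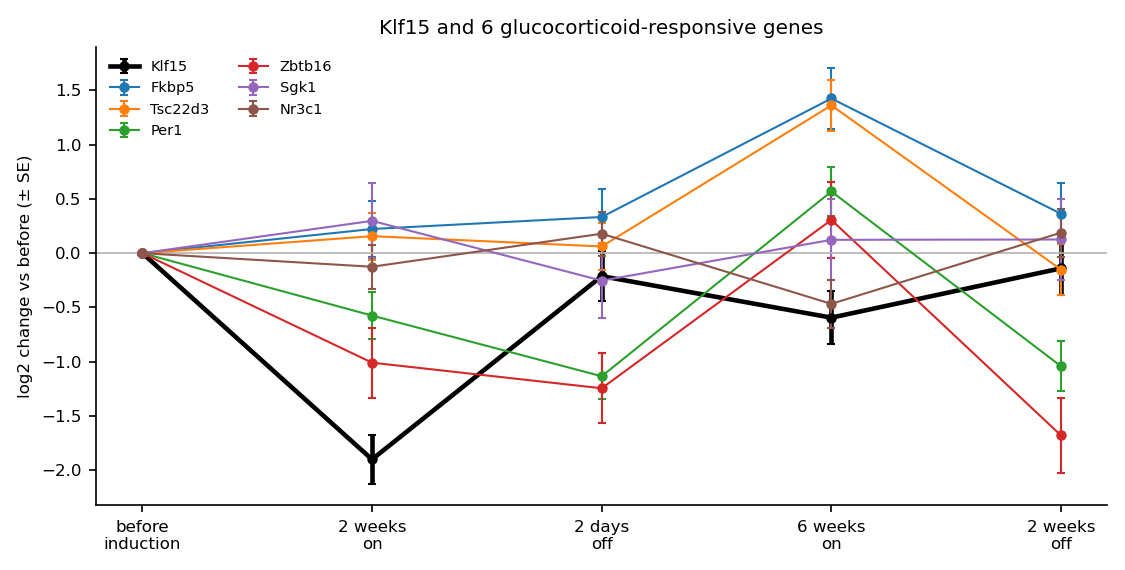
Log2 change against the mean before induction (y axis, ± SE) of Klf15 and 6 glucocorticoid-responsive genes by group in order of time (x axis). Klf15 has its low point of -1.90 at 2 weeks on, whereas Fkbp5 and Tsc22d3 peak at 6 weeks on at 1.42 and 1.36.

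Clock genes moved with the groups as well: of 13 tested, 0 were higher and 7 lower at 2 weeks on, 1 and 8 at 2 days off, 1 and 6 at 6 weeks on, and 1 and 6 at 2 weeks off, each against before induction. Of all probe sets, 2.35%, 1.46%, 7.54% and 1.4% were called lower in these comparisons. The counts of clock genes higher and lower were 0 and 2, 1 and 4, 0 and 3, and 1 and 3 without both hearts with Xist signal. Klf15 is known to cycle with the time of day in the heart, no source used here gives the time of day at which hearts were taken, and the part of that time in the values of Klf15 was not tested.

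Markers of other cells moved with some of the groups in which the members changed. The summed signal of the 3 adipocyte markers kept by the filter on chip 430A (of 6 listed) ran from 241 to 2425 before induction, 197 to 394 at 2 weeks on, 294 to 5425 at 2 days off, 101 to 383 at 6 weeks on and 414 to 5460 at 2 weeks off. Of these markers 1 (Retn) was called higher in each repression. The sums of 6 atrial markers ran from 2182 to 67937 before induction, 2771 to 15982 at 2 weeks on, 4725 to 43688 at 2 days off, 5830 to 16954 at 6 weeks on and 7299 to 47463 at 2 weeks off, with 0 markers called (at most 1 at an unadjusted p under 0.05). Of 6 endothelial markers 3 (Emcn, Pecam1 and Kdr) were lower at 6 weeks on against before and higher at 2 weeks off against 6 weeks on. Of 6 fibroblast markers 3 were higher at 2 weeks on and 3 at 6 weeks on. The sums of 6 macrophage markers ran from 6503 to 10175 at 2 days off, against 5806 to 6269 at 2 weeks on, and from 7027 to 9658 at 2 weeks off, against 4989 to 6315 at 6 weeks on, without overlap in either repression. Of these, Lyz2 and Tyrobp were called higher at 2 days off and Lyz2 at 2 weeks off. Of 6 smooth muscle and pericyte markers, Tagln was higher at 2 days off against 2 weeks on (adjusted p = 0.0344). Cspg4 was higher at 6 weeks on against before (adjusted p = 0.00826) and lower at 2 weeks off against 6 weeks on (adjusted p = 0.00891). Of 6 markers of skeletal muscle, a tissue rich in Fbxo32 and Trim63, 2 were kept by the filter and 0 called. The part of these cells in the changes of the members was not tested.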

How the data were processed

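RNA of 18 hearts was hybridised to 2 chips each, giving 36 arrays. The deposited values are linear intensity values, made with MAS5 per the submitters' processing notes (its version was not given). Every array of chip 430A had a 2% trimmed mean of 500.2 and every array of chip 430B 122.5, within 0.006%, so the deposited signals share 1 scale per chip. Symbols came from the platform annotation. RNA was isolated with Ultraspec-II, per the labels' protocols.

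The signals of a chip went into limma 3.58.1 (R 4.3.3, lmFit, eBayes with a trend) as log2(signal + 50.02) on chip 430A and log2(signal + 12.25) on chip 430B, over the 15565 and 17519 probe sets with a mean signal of at least 20% of the trimmed mean (100.04 and 24.5). All 18 hearts shared 1 spread. P-values were adjusted by Benjamini-Hochberg within a chip and called under 0.05. The fit was tested on simulated data. The series' design text describes individual mice, so p-values rest on the variation among hearts, and precision is limited by how many arrays there were. The members, the gene lists, the comparisons and the motifs were chosen with earlier results of these data known. The brightest probe set stood for a gene, on chip 430A where one passed the filter there. The named genes of a list were mostly called members with the lowest adjusted p (up to 4 per comparison). Other genes of a list, called or not, were named after their values were seen. The named alike genes were the 5 nearest for Fbxo32 and Klf15 and the 3 nearest for the others. Hearts of the same number did not deviate together between groups (5 of 33 pairs had a correlation over 0.1, median -0.02; 17 of 96 pairs with different numbers), so the numbers were not used to pair them. No source used here names batches, and none was tested.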

Additional observations from a re-analysis of the deposited data

Results flagged for a closer look

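The change of Fbxo32 1448747_at on repression differed between the 2 repressions, by a test of the difference itself. The change at 2 weeks off against 6 weeks on minus the change at 2 days off against 2 weeks on was -1.41 on the log2 scale (SE 0.331, limma, adjusted p = 0.0475). The 2 changes were 0.47 and 1.88. The same difference was -0.76 and -0.70 for the other 2 Fbxo32 probe sets and was not called. Dixon's test found 0 outlying hearts in 24 groups of 4 (3 groups for each of the 8 probe sets), where chance flags about 1 in 20 groups, and groups of 3 hearts were not tested.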

How the results depend on the processing

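The members were recomputed under 11 other settings and with each of the 18 hearts left out. At 2 weeks on against before induction 5 to 6 of 8 probe sets were called with 1 heart left out and 5 to 7 under the other settings, and at 2 days off against 2 weeks on 7 and 7 to 8, where 6 and 7 are reported. At 2 days off against before, 2 became 1 with no filter, 1 with arrays scaled to a common median, 0 in eBayes without a trend, 1 with the Actb ratio as a covariate and 0 without both hearts with Xist signal (1 to 3 with 1 heart left out). At 6 weeks on against before, 3 became 1 with median scaling (3 to 5 with 1 heart left out). At 6 weeks on against 2 weeks on, 4 became 1 in a fit of these groups alone (2 to 5 with 1 heart left out, 2 without heart 2 at 6 weeks on). At 2 weeks off against 6 weeks on, 5 became 2 in a fit of these groups alone and 3 with the Actb covariate (4 to 5). At 2 weeks off against before, 2 became 1 in a fit of these groups alone and 1 without both hearts with Xist signal (1 to 3). The single call in the difference of the repression responses became 0 with an offset of 20%, with no filter, with median scaling and without a trend, and 3 with the Actb covariate (0 to 3, 3 without heart 3 at 6 weeks on). The cause was not tested.

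Changes that turned direction were not called under any of these settings. Gabarapl1 1416419_s_at at 6 weeks on against before was 0.20 with median scaling, 0.044 with the replicate block, 0.15 with the Actb covariate and -0.074 to 0.11 with 1 heart left out. Bnip3 in that comparison was -0.047 without both hearts with Xist signal. At 2 weeks off against before it was -0.000504 with the block, -0.037 with the Actb covariate, -0.19 without both hearts with Xist signal and -0.077 to 0.11 with 1 heart left out. Gabarapl1 1416418_at at 6 weeks on against 2 weeks on was -0.060 to 0.24 with 1 heart left out, and its difference of responses was -0.054 with the Actb covariate and -0.10 to 0.20 with 1 heart left out.

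With the replicate number as a block, 5 probe sets were called at 2 weeks on against before and 0 in the difference of responses, and the other counts were as reported. Scaling to a common median moved the median change of all probe sets by up to 0.18, and the higher and lower calls over all probe sets became 898 and 429 (881 and 777 as reported) at 2 weeks on against before, 1222 and 1823 (1749 and 1470) at 2 days off against 2 weeks on, 544 and 292 (585 and 484) at 2 days off against before, 2830 and 1176 (1868 and 2493) at 6 weeks on against before, 626 and 357 (560 and 782) at 6 weeks on against 2 weeks on, 1390 and 1841 (2145 and 1460) at 2 weeks off against 6 weeks on, and 397 and 233 (387 and 464) at 2 weeks off against before. Leaving hearts out of the gene list counts was chosen after seeing the data. Arrays give no depth, and groups of 3 and 4 hearts limit the precision.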
